A study of Rattus norvegicus with 9 samples.

Results

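The subject is a set of 46 chemokines, cytokines, their receptors and targets of the transcription factor NF-kB, given as a list of rat gene symbols. A gene was kept where it had a count above 0 in at least 3 of the 9 libraries, which left 43 genes of the 17465 in the table. They comprised 10 CC chemokines, 9 CXC or CX3C chemokines, 10 cytokines or cytokine inhibitors, 6 chemokine receptors, 3 cytokine receptors and 5 NF-kB components or targets. Of the other 3, Ccl17 was above 0 only in treated library 2 (2 counts), Ccl19 was above 0 only in hypoplastic libraries 1 and 2, and Tnfaip3 was not analysed here.

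Transcript levels were measured by total RNA sequencing, after ribosomal RNA depletion, in fetal lungs of Sprague-Dawley rats. The 3 control lungs were untreated, the 3 hypoplastic lungs were untreated, and the 3 treated lungs were hypoplastic lungs that had received AFSC-EVs, which are extracellular vesicles from amniotic fluid stem cells. The series title ties the hypoplasia to oligohydramnios, a shortage of amniotic fluid around the fetus. The sources used here state no fetal age, litter or way of producing the hypoplasia, and no dose, route or timing of the vesicles. Nothing states that the 3 libraries of a group came from separate litters, so each p-value measures only the spread between these samples, which may be partly technical.

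Chemokines are small secreted proteins that guide leukocytes along concentration gradients through G protein-coupled receptors. The cytokines of the interleukin-1 and tumour necrosis factor families release NF-kB from its cytoplasmic inhibitors, and nuclear NF-kB then activates genes for chemokines, cytokines, adhesion molecules and its own inhibitors. In the lung these genes are known from infection and injury, where epithelium, macrophages and fibroblasts all produce them. In whole-lung RNA, fewer cells of a type and less RNA per cell cannot be told apart.

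NF-kB acts through short DNA sites close to many of these genes, so the 250 bases before each annotated start were searched on both strands for the NF-kB consensus. RefSeq windows of the rat assembly GRCr8 were found for 32 of the 43 genes (33 windows), and 11 genes had none. The NF-kB consensus was present in 9 of the 33 windows (27.3%), against 6.33% of all 33469 windows. A match is a description of the letters and not a measured binding site. The last 140 bases before the start are shown for 8 of these 9 genes: Nfkbia, as the feedback inhibitor, and the 7 that were also at least 3 times higher in hypoplastic library 2 than in every other library. These were chosen with their values known, so their number is no finding; 18 of the 43 genes (41.9%) and 0.864% of all genes tested were that much higher there. Capitals mark the consensus match (overlapping matches joined), and each sequence reads toward the gene.
Ccl7: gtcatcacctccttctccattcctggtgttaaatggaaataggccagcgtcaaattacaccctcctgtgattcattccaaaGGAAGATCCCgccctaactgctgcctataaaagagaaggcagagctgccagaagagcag
Ccl20: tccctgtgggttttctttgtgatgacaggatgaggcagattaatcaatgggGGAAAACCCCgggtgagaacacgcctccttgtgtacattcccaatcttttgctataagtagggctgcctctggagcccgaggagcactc
Cxcl1: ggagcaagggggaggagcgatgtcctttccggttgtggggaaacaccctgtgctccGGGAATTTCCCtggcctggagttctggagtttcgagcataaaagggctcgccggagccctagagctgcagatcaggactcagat
Cxcl2: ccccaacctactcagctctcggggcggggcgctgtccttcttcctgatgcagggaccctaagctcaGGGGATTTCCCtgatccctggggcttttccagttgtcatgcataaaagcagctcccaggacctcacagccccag
Cxcl6: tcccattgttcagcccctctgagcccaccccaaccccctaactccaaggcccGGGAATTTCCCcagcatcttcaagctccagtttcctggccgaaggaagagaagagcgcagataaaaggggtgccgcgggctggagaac
Il6: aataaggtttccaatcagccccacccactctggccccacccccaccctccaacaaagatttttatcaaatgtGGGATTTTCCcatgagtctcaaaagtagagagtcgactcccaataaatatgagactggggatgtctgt
Nfkbia: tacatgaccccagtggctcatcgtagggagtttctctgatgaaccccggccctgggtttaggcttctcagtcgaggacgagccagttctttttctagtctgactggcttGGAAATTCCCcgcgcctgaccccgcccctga
Vcam1: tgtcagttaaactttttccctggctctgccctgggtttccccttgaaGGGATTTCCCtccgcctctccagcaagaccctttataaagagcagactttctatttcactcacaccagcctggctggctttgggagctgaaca
Ccl7 lies at chr10:67513955-67514094 and Ccl20 at chr9:91837019-91837158, both on the plus strand. On the minus strand lie Cxcl1 at chr14:17479322-17479461, Cxcl2 at chr14:17467256-17467395, Cxcl6 at chr14:17596418-17596557, Il6 at chr4:5894576-5894715, Nfkbia at chr6:78597073-78597212 and Vcam1 at chr2:206742784-206742923. The match ended between 22 bases before the start (Nfkbia) and 84 bases before it (Vcam1). In Cxcl1, Cxcl2 and Cxcl6, which encode related neutrophil chemokines on chromosome 14, it ended 74, 64 and 78 bases before the start. The gene with a match that is not shown is Il1r1, which was 1.23 times its next library there, and no match in a window says only that these letters are not there.

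Library totals ran from 56922779 to 88243188 estimated counts, and levels are given below as CPM, the count relative to the TMM-scaled library size. These levels are not scaled to gene length and are compared between libraries, not between genes. One library stood apart for the genes described here: hypoplastic library 2 was the highest of all 9 in 33 of the 43 genes. Among the 40 of them with enough counts to be tested, it was highest in 30 (75.0%), against 16.1% of the 12966 genes tested, and lowest in 2 (Ccr2 and Il33), against 15.0%. It was at least 3 times the highest other library in 15 of the 40 (37.5%), against 0.864% of all genes tested. Control library 2 was lowest in 18 of the 40 (45%), against 22.1% of all genes. The main counts, and the values that moved most, are therefore also given below without such a library.

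Hypoplastic library 2 also differed in markers of cell types, and their part in the results was not tested. The summed level of 10 macrophage markers was 329.8 CPM there, against 45.5 to 154.1 CPM in control lungs, 108.0 and 184.8 CPM in the other hypoplastic lungs and 92.6 to 284.3 CPM in treated lungs. Of the 10 markers, 9 were highest there. These included Marco, a macrophage receptor that was at 0 in every other library. The summed level of 12 neutrophil markers was 34.4 to 51.1 CPM in control, 124.2 to 202.1 CPM in hypoplastic and 58.1 to 126.2 CPM in treated lungs. Of these 12 markers, 4 were highest in hypoplastic library 2, and a few abundant genes can weigh most in such a sum. The 4 mesenchyme markers summed to 11440 CPM in hypoplastic library 2 and to 1381 to 4967 CPM elsewhere, with Col1a1, a fibrillar collagen, at 5816 CPM against 598.8 to 1862 CPM. The 5 T cell markers summed to 0.589 to 4.33 CPM, with the highest sum in hypoplastic library 2. Most of that sum was Cd4, which macrophages of the rat also express, while the defining markers Cd3d, Cd3e and Cd3g were at 0 to 0.12 CPM in all libraries. Markers of lung epithelium were present throughout, with sums of 2075 to 4776 CPM. Control library 2 differed in markers too, with the highest lung epithelium sum and the lowest macrophage (45.5 CPM) and mesenchyme (1381 CPM) sums. Its red cell markers summed to 10630 CPM, against 3113 to 6346 CPM elsewhere, and the part of these differences was not tested. Heart muscle markers were at 130.3 and 66.01 CPM in hypoplastic libraries 1 and 2 and at 2.32 to 9.53 CPM elsewhere. By Xist and 2 Y-linked genes, control libraries 1 and 2, hypoplastic library 3 and treated library 3 were male and the other 5 female.

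**Figure D1:**
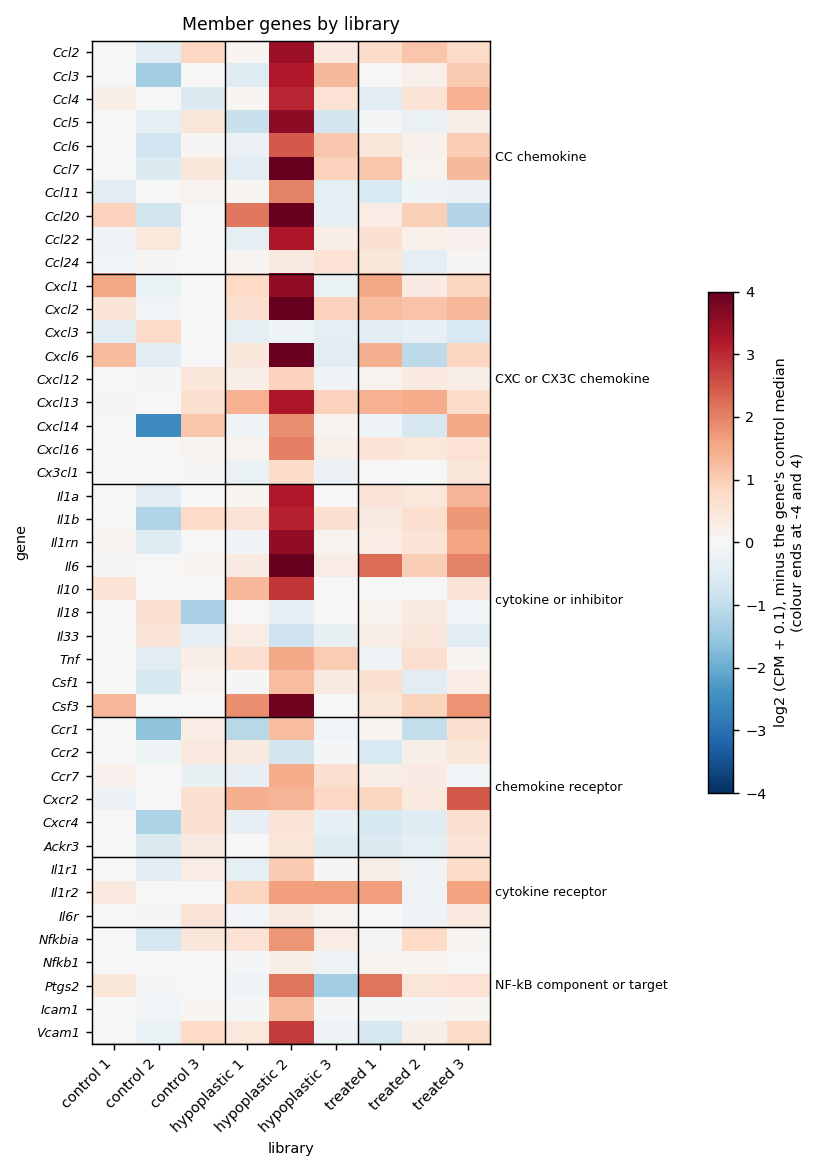
Level of each of the 43 genes (rows, grouped by role) in each of the 9 libraries (columns), as log2 of CPM plus a small constant minus that gene's control median, with red above and blue below it and the colour ending at -4 and 4. Hypoplastic library 2 is the highest library in 33 of the 43 rows.

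The CC chemokines, ligands that draw mainly monocytes, macrophages and lymphocytes, showed the widest gap between hypoplastic library 2 and the rest. Of the 10, 8 were at least 3 times higher there than in any other library, against 0.864% of all genes tested. Ccl2, the main monocyte chemokine, was at 5.01, 3.73 and 8.88 CPM in control libraries 1 to 3, at 5.31, 54.4 and 6.65 CPM in hypoplastic libraries and at 8.46, 10.9 and 8.56 CPM in treated libraries. Ccl7, which shares the receptor Ccr2 with Ccl2, was at 0.521, 0.321 and 0.745 CPM in control, 0.351, 11.97 and 1.07 CPM in hypoplastic and 1.24, 0.586 and 1.41 CPM in treated lungs. For both genes the other 2 hypoplastic libraries lay within or close to the control and treated values, and the groups overlapped.

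Ccl3 and Ccl4 are related macrophage inflammatory proteins that attract leukocytes. Ccl3 was at 0.919, 0.285 and 0.936 CPM in control, 0.61, 9.29 and 2.39 CPM in hypoplastic and 0.922, 1.08 and 2.03 CPM in treated lungs. Ccl4 was at 0.169, 0.125 and 0.0542 CPM in control, 0.137, 1.75 and 0.235 CPM in hypoplastic and 0.066, 0.227 and 0.485 CPM in treated lungs. In both, hypoplastic library 2 was highest and the groups overlapped. How reads shared by such similar genes were divided is not stated, so the split between them is uncertain, as it is for Cxcl1, Cxcl2 and Cxcl3.

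Ccl5, a chemokine made by T cells, macrophages and epithelium, was at 0.965, 0.714 and 1.40 CPM in control, 0.473, 12.6 and 0.543 CPM in hypoplastic and 0.909, 0.778 and 1.15 CPM in treated lungs. Hypoplastic libraries 1 and 3 lay below all 6 control and treated libraries and library 2 far above them. Ccl20, an epithelial ligand of Ccr6, was at 1.26, 0.339 and 0.624 CPM in control, 3.001, 11.5 and 0.471 CPM in hypoplastic and 0.791, 1.29 and 0.22 CPM in treated lungs. Here hypoplastic library 1 was also above all control and treated values, whereas library 3 lay within the control range.

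Ccl6, a monocyte chemokine of rodents, was at 2.61, 1.46 and 2.70 CPM in control, 2.20, 14.9 and 5.58 CPM in hypoplastic and 3.68, 2.95 and 5.30 CPM in treated lungs. All 3 treated libraries and 2 of the 3 hypoplastic ones lay above the control range. Ccl24, an eosinophil chemokine also made by macrophages, varied little, from 2.79 to 3.14 CPM in control, 3.25 to 4.58 CPM in hypoplastic and 2.34 to 4.19 CPM in treated lungs. Ccl11, the eosinophil chemokine eotaxin, had 31 counts in hypoplastic library 2 and 0 to 5 elsewhere, and Ccl22, a ligand of Ccr4, had 67 counts there and 0 to 7 elsewhere. Ccl19, a ligand of Ccr7 that failed the 3-library minimum, was at 5.42 CPM in hypoplastic library 2, had 4 counts in hypoplastic library 1 and was at 0 in the other 7, where 3 counts correspond to 0.0359 to 0.0543 CPM.

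**Figure D2:**
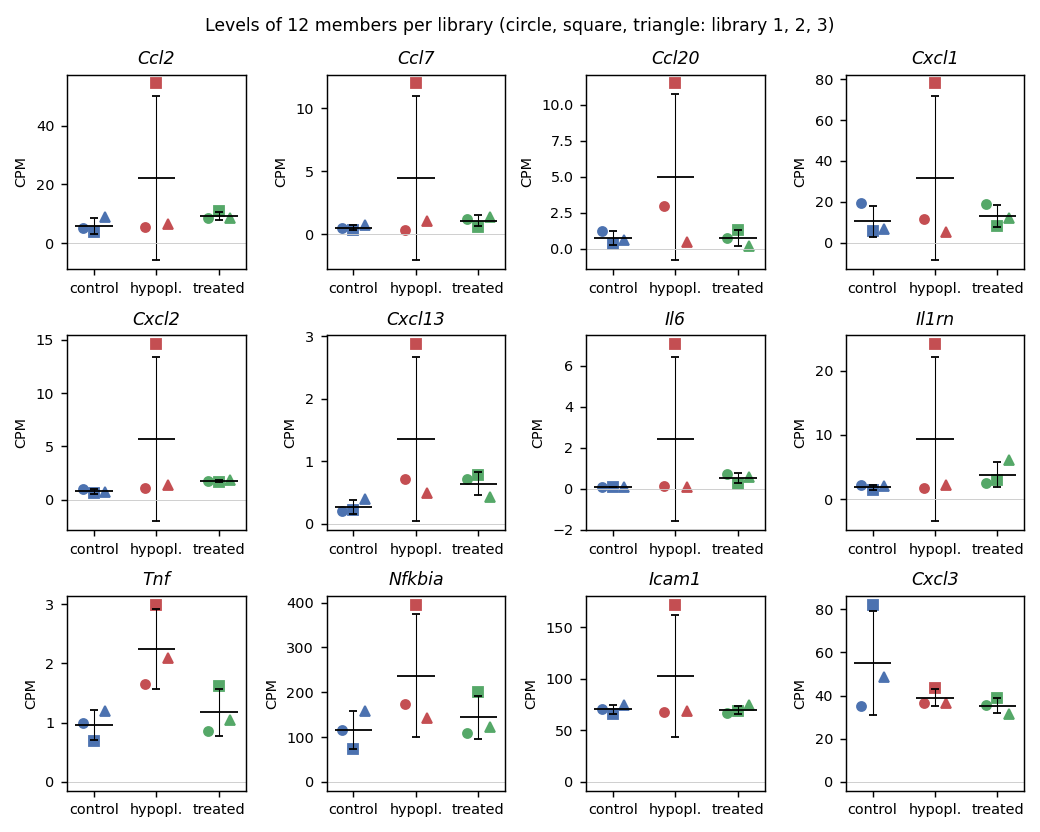
Levels in CPM (linear axis) of 12 genes of the set, 1 panel a gene, with the 3 libraries of each group as points (circle, square and triangle for libraries 1, 2 and 3), the group mean as a horizontal line and the SD as an error bar. In Ccl2 the hypoplastic square at 54.4 CPM lies above 8 libraries between 3.73 and 10.9 CPM, whereas in Tnf all 3 hypoplastic points lie above the other groups.

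The CXC chemokines bearing an ELR motif attract neutrophils through Cxcr2. Cxcl1 was at 19.3, 5.49 and 6.56 CPM in control, 11.5, 77.9 and 5.42 CPM in hypoplastic and 18.8, 8.19 and 12 CPM in treated lungs. Cxcl2 was at 1.01, 0.624 and 0.678 CPM in control, 1.11, 14.6 and 1.38 CPM in hypoplastic and 1.74, 1.62 and 1.85 CPM in treated lungs. For Cxcl2 all 6 hypoplastic and treated libraries lay above all 3 control libraries, whereas for Cxcl1 the groups overlapped. Cxcl6 was at 0.398, 0.0535 and 0.109 CPM in control, 0.183, 3.14 and 0.0543 CPM in hypoplastic and 0.461, 0 and 0.279 CPM in treated lungs, and only hypoplastic library 2 stood out. Cxcl3 was instead highest in a control library: it was at 35.2, 81.9 and 48.6 CPM in control and between 31.6 and 43.4 CPM in the other 6 libraries, with 43.4 CPM in hypoplastic library 2.

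Among the remaining chemokines of this class, Cxcl13, a B cell attractant of lymphoid stroma, was at 0.199, 0.214 and 0.393 CPM in control, 0.717, 2.87 and 0.489 CPM in hypoplastic and 0.724, 0.777 and 0.426 CPM in treated lungs. All 6 hypoplastic and treated libraries lay above the control range for Cxcl13. Cxcl16, a membrane-bound ligand and scavenger receptor, did so as well, at 19.6, 19.96 and 21.4 CPM in control, 22.1, 80.5 and 23.0 CPM in hypoplastic and 29.3, 27.0 and 29.6 CPM in treated lungs. Cxcl14, a constitutive epithelial and stromal chemokine, ranged from 1.12 to 15.3 CPM in control, 6.34 to 25.8 CPM in hypoplastic and 4.53 to 20.3 CPM in treated lungs, so the spread within groups was wide. Cxcl12, the stromal ligand of Cxcr4 and Ackr3, ranged from 18.6 to 27.4 CPM in control, 17.96 to 37.6 CPM in hypoplastic and 21.9 to 25.7 CPM in treated lungs. Cx3cl1, the endothelial and epithelial ligand fractalkine, was between 15.1 and 25.3 CPM in 8 libraries and at 30.7 CPM in hypoplastic library 2.

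The interleukin-6 gene Il6, a cytokine that signals through gp130 and STAT3, had the largest ratio of hypoplastic library 2 to the median of the other 8, 61.1 among the genes with such a median above 0. Its level was 0.0613, 0.0713 and 0.0814 CPM in control (4 to 6 counts), 0.122, 7.05 and 0.109 CPM in hypoplastic and 0.711, 0.239 and 0.573 CPM in treated lungs. Hypoplastic libraries 1 and 3 held only 8 and 6 counts, and the 3 treated libraries held 54, 20 and 39. The treated libraries thus lay above the controls and above 2 of the 3 hypoplastic libraries, and below hypoplastic library 2.

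The interleukin-1 genes had the same highest library. Il1a, an alarmin released by damaged cells, was at 0.199, 0.125 and 0.203 CPM in control, 0.214, 2.66 and 0.199 CPM in hypoplastic and 0.329, 0.299 and 0.661 CPM in treated lungs. Il1b, the inflammasome-processed form, was at 0.781, 0.285 and 1.40 CPM in control, 1.17, 7.33 and 1.29 CPM in hypoplastic and 1.04, 1.29 and 2.81 CPM in treated lungs. Il1rn, the antagonist that blocks the interleukin-1 receptor, was at 2.17, 1.40 and 1.99 CPM in control, 1.78, 24.1 and 2.21 CPM in hypoplastic and 2.47, 2.91 and 6.12 CPM in treated lungs. For Il1a and Il1rn the treated libraries all lay above the control range and above hypoplastic libraries 1 and 3, and for Il1b the groups overlapped.

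Tnf, which activates NF-kB through its receptor Tnfrsf1a, differed from the genes above in that no single library set it apart. Its level was 0.987, 0.696 and 1.19 CPM in control, 1.65, 2.99 and 2.10 CPM in hypoplastic and 0.856, 1.63 and 1.04 CPM in treated lungs. All 3 hypoplastic libraries lay above all control and all treated libraries, although the lowest hypoplastic and highest treated values were nearly equal. Csf1, the growth factor of macrophages, was at 16.3 to 28.3 CPM in control, 24.8, 60.9 and 32.8 CPM in hypoplastic and 19.3 to 39.1 CPM in treated lungs. Csf3, the growth factor of neutrophils, had 83 counts in hypoplastic library 2 (1.36 CPM), 0 to 17 counts in the others and 0 in control libraries 2 and 3 and hypoplastic library 3.

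Il33 and Il18, epithelial cytokines of the interleukin-1 family, did not share the peak. Il33, which signals through the receptor Il1rl1, was lowest in hypoplastic library 2 at 31.6 CPM and ran from 40.8 to 80.0 CPM elsewhere. Il18 ran from 1.84 to 7.10 CPM, with 3.69 CPM in hypoplastic library 2, and its lowest and highest values were both in control lungs. Il10, an inhibitory cytokine, had 38 counts in hypoplastic library 2, 10 in hypoplastic library 1 and 0 to 3 in the others.

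**Figure D3:**
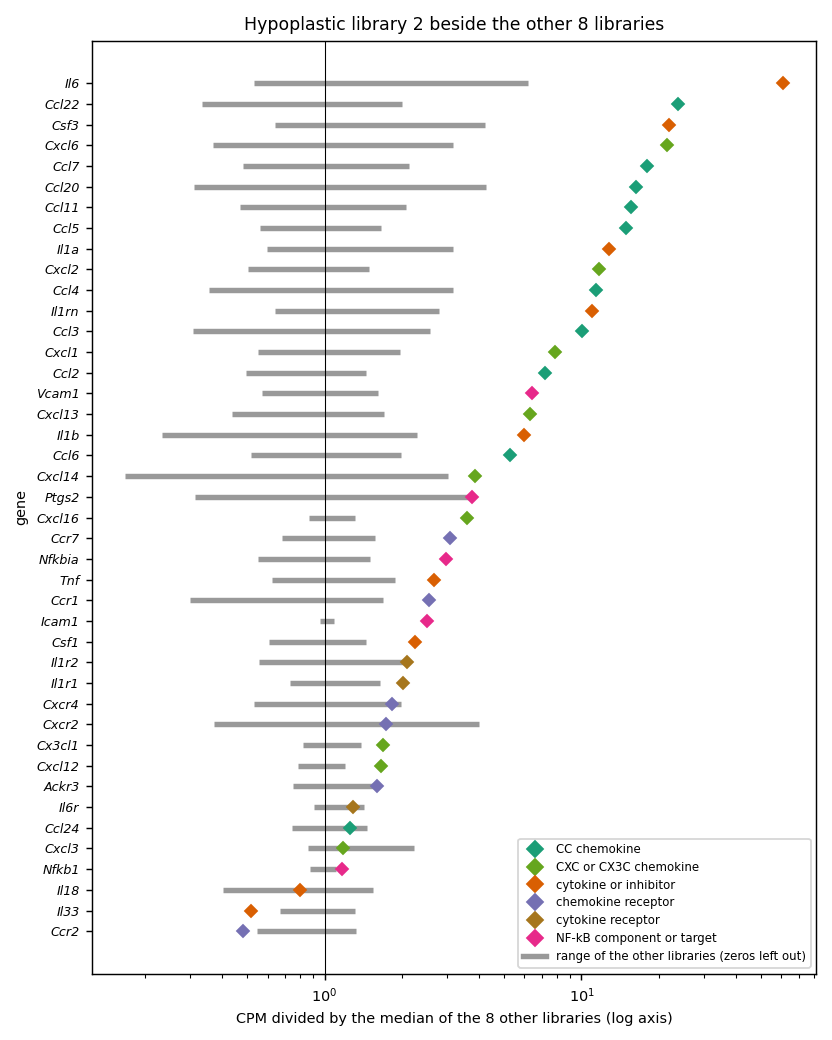
Level in hypoplastic library 2 divided by the median of the other 8 libraries (diamonds, coloured by role, log axis) for each gene with a median above 0, beside the range of those other libraries (grey bars, zeros left out). The ratio is 61.1 for Il6 and 7.21 for Ccl2 and lies below 1 for Il33 (0.519) and Ccr2 (0.482).

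Of the 29 chemokine and cytokine genes, 17 were at least 3 times higher in hypoplastic library 2 than in every other library. None of the 9 receptors was, which is near the 0.864% of all genes tested. These are counts without a test. Ccr1, the receptor for Ccl3 and Ccl5, ran from 0.464 to 2.03 CPM in control and 0.789 to 2.61 CPM in treated lungs and was at 0.702, 3.95 and 1.48 CPM in hypoplastic lungs. Ccr2, the receptor of Ccl2 and Ccl7 on monocytes, was lowest in hypoplastic library 2 at 0.327 CPM and lay between 0.369 and 0.896 CPM elsewhere. The highest Ccl2 value therefore fell in the library with the lowest Ccr2 value. Ccr2 levels were low in every library and overlapped between the groups, and no relation between these genes was tested. Ccr7, which guides dendritic cells and lymphocytes to lymph nodes, was at 1.24 CPM in hypoplastic library 2 and between 0.275 and 0.634 CPM elsewhere.

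Cxcr2, the neutrophil receptor for Cxcl1 and Cxcl2, was at 0.123, 0.161 and 0.298 CPM in control, 0.595, 0.572 and 0.362 CPM in hypoplastic and 0.369, 0.239 and 1.32 CPM in treated lungs. The 3 hypoplastic libraries all lay above the control range, and hypoplastic library 2 was not the highest. S100a8 and S100a9, which are among the 12 neutrophil markers, were also above the control range in all hypoplastic and treated libraries. S100a8 was at 2.71 to 4.56 CPM in control, 19.8 to 39.0 CPM in hypoplastic and 7.81 to 30.1 CPM in treated lungs. Values of Csf3r, another of the 12 neutrophil markers, overlapped between control lungs and each of the other groups. The remaining neutrophil markers are given above only within the sum, so these genes do not stand for all of them. The part of these neutrophil genes in the Cxcr2 values was not tested. Cxcr4, the receptor of Cxcl12 on stem cells, endothelium and leukocytes, ran from 53.9 to 197.9 CPM in control, 101.7 to 185.5 CPM in hypoplastic and 82.0 to 202.1 CPM in treated lungs, and the groups overlapped. Ackr3, which scavenges Cxcl12, ran from 35.7 to 77.7 CPM with overlap of all groups.

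Il1r2, the decoy receptor that binds interleukin-1 without signalling, was at 1.12, 0.838 and 0.832 CPM in control, 1.60, 2.85 and 2.88 CPM in hypoplastic and 2.87, 0.753 and 2.75 CPM in treated lungs. All hypoplastic libraries lay above the control range, with libraries 2 and 3 nearly equal, and treated library 2 lay below it. Il1r1, the signalling receptor, was between 12.3 and 27.5 CPM in 8 libraries and at 33.8 CPM in hypoplastic library 2. Il6r, the ligand-binding chain for interleukin-6, stayed between 10.2 and 16.04 CPM in all 9 libraries, so its spread was small beside that of Il6.

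Of the NF-kB components, Nfkb1, which encodes the p105 precursor of the p50 subunit, was at 71.7, 71.9 and 72.03 CPM in control, 69.0, 84.2 and 63.0 CPM in hypoplastic and 80.1, 76.3 and 73.2 CPM in treated lungs. The 3 treated libraries lay above the control range by a small margin. Nfkbia, the inhibitor that NF-kB itself induces, was at 115.7, 73.1 and 157.8 CPM in control, 174.1, 394.3 and 143.0 CPM in hypoplastic and 110.2, 199.7 and 122.7 CPM in treated lungs. Hypoplastic libraries 1 and 2 and treated library 2 lay above the control range for Nfkbia.

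The adhesion molecules through which leukocytes bind endothelium peaked in hypoplastic library 2. Icam1 was at 171.5 CPM there and between 66.1 and 75.0 CPM in the other 8, a narrow range. Vcam1 was at 9.31, 7.67 and 16.4 CPM in control, 12.5, 65.1 and 8.02 CPM in hypoplastic and 5.79, 11.0 and 15.8 CPM in treated lungs. Endothelial markers summed to 782.3 CPM in hypoplastic library 2 and to 597.6 to 807.9 CPM elsewhere. The sums of macrophage (329.8 CPM), neutrophil (202.1 CPM) and mesenchyme (11440 CPM) markers were highest in that library. The part of any cell type in the Icam1 and Vcam1 values was not tested. Ptgs2, the inducible cyclooxygenase of prostaglandin synthesis, was at 14.3, 9.83 and 10.3 CPM in control, 9.21, 46.1 and 3.86 CPM in hypoplastic and 45.9, 14.4 and 15.3 CPM in treated lungs. Treated library 1 thus came within 0.2 CPM of hypoplastic library 2 for Ptgs2, and the hypoplastic group held both its highest and its lowest value.

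Hypoplastic lungs were first set against control lungs, to ask whether hypoplasia altered these genes. No gene of the set passed edgeR's quasi-likelihood test after Benjamini-Hochberg adjustment over all 12966 genes tested, where 1 gene did (0.00771%), and none passed with DESeq2, where 207 genes did (1.6%). DESeq2 gave 12 of the 40 (30%) an unadjusted p under 0.05, against 13.6% of all genes, and no p in any comparison to 6 (Ccl2, Ccl5, Cxcl2, Il1a, Il1rn and Il6). At an unadjusted edgeR p under 0.05, 17 of the 40 were higher in hypoplastic lungs, against 6.67% of all genes tested, and 0 were lower, against 5.69%. With sex as a covariate 7 of the 40 (17.5%) were higher, against 4.16% of all genes. The median log2 difference of the 40 was 1.13, against 0.01 over all genes tested, and 35 of the 40 were above 0, against 51.9%. Values of the 8 genes Ccl24, Cxcl2, Cxcl13, Cxcl16, Cxcr2, Il1r2, Il6 and Tnf did not overlap between the groups and were higher in hypoplastic lungs, against 7.67% of all genes, and 0 were lower without overlap, against 9.05%.

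Without hypoplastic library 2, the median log2 difference of the 40 was 0.08 and 23 were above 0, against 0.01 and 51.9% over all genes. At an unadjusted edgeR p under 0.05, 3 genes were then higher (Cxcl13, Il1r2 and Tnf), against 4.31% of all genes, and 1 was lower (Ccl5), against 4.67%. Hypoplastic library 2 had been singled out for its high values in these same genes, so leaving it out was bound to lower most of these differences. The other 2 hypoplastic libraries did not overlap the controls in 8 genes that were higher, against 13.0% of all genes, and in 4 that were lower, against 14.1%. Without control library 2, 5 genes were higher at an unadjusted edgeR p under 0.05, against 3.79%, the median was 1.04, and 34 were above 0, against 52.8%. Read library by library, 12 of the 40 genes lay above all 3 control libraries in hypoplastic library 1, 34 in library 2 and 15 in library 3, against 29.9%, 31.2% and 27.0% of all genes.

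**Figure D4:**
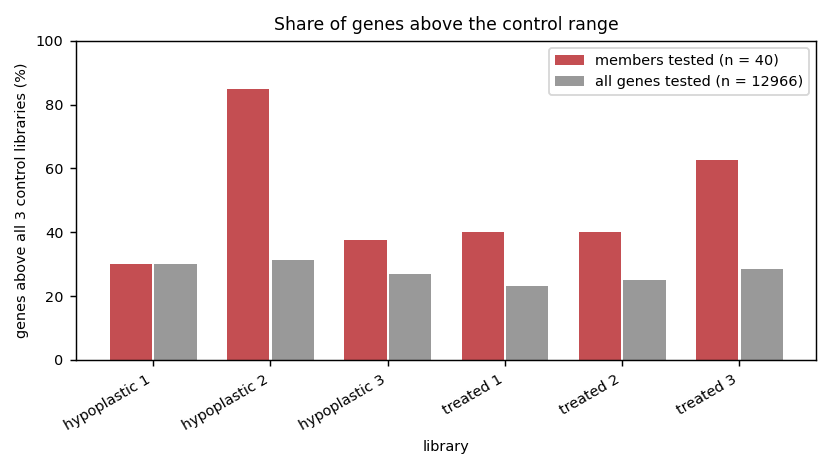
Share of the 40 tested genes of the set and of all 12966 genes tested (%) that lay above all 3 control libraries, for each hypoplastic and treated library. Hypoplastic library 2 reaches 85.0% and treated library 3 reaches 62.5%, while hypoplastic library 1 is at 30% against 29.9% of all genes.

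By role, 6 of the 8 CC chemokines tested were higher at an unadjusted edgeR p under 0.05, against 6.67% of all genes tested. Without hypoplastic library 2, 0 of the 8 were higher and 1 was lower, against 4.31% and 4.67% of all genes. The log2 difference between hypoplastic and control lungs was 1.91 for Ccl2 (SE 0.785), 3.04 for Ccl7 (SE 1.11), 2.49 for Ccl3 (SE 0.856), 2.63 for Ccl4 (SE 1.10), 1.73 for Ccl6 (SE 0.592) and 2.74 for Ccl20 (SE 0.968), with edgeR adjusted p of 0.333 to 0.386. Without hypoplastic library 2 these differences were 0.02, 0.36, 1.01, 0.68, 0.76 and 1.24. For Ccl5 the log2 difference was 2.13 (SE 1.05, edgeR adjusted p = 0.439), and it was -1.03 without hypoplastic library 2.

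Of the 9 CXC or CX3C chemokines, 3 were higher at an unadjusted edgeR p under 0.05, against 6.67% of all genes tested. Without hypoplastic library 2, 1 of the 9 was higher, against 4.31% of all genes. The log2 difference was 2.31 for Cxcl13 (SE 0.713, edgeR adjusted p = 0.323), 2.88 for Cxcl2 (SE 0.914, edgeR adjusted p = 0.323) and 1.04 for Cxcl16 (SE 0.427, edgeR adjusted p = 0.379). Without hypoplastic library 2 these were 1.14, 0.68 and 0.15, so all kept a positive sign at a smaller size. Cxcl3 was at -0.50 (SE 0.256, edgeR adjusted p = 0.455), and at -0.59 without that library.

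Of the 9 cytokines and inhibitors tested, 6 were higher at an unadjusted edgeR p under 0.05, against 6.67% of all genes tested. Without hypoplastic library 2, 1 of the 9 was higher, against 4.31% of all genes. Tnf had the smallest p of the whole set, with a log2 difference of 1.21 (SE 0.345, edgeR adjusted p = 0.317), and it was at 0.95 (SE 0.36) without hypoplastic library 2. The log2 difference was 5.05 for Il6 (SE 1.65, edgeR adjusted p = 0.325), 2.33 for Il1rn (SE 0.91), 1.95 for Il1b (SE 0.799), 2.51 for Il1a (SE 1.04), 3.36 for Csf3 (SE 1.41) and 0.75 for Csf1 (SE 0.362). Without hypoplastic library 2 these were 0.68, 0.09, 0.54, 0.21, 1.41 and 0.30, and none had an unadjusted edgeR p under 0.05.

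Of the 9 receptors, 1 was higher at an unadjusted edgeR p under 0.05, against 6.67% of all genes tested. This was Il1r2, with a log2 difference of 1.39 (SE 0.485, edgeR adjusted p = 0.341) and of 1.26 without hypoplastic library 2. Of the 5 NF-kB components and targets, 1 was higher by the same rule: Nfkbia, at 1.04 (SE 0.411, edgeR adjusted p = 0.369) and at 0.46 without that library. The other 20 genes of the 40 had log2 differences from -0.31 to 2.57, with edgeR adjusted p of 0.466 to 0.993. Only Tnf, Cxcl13 and Il1r2 were therefore higher in hypoplastic lungs at an unadjusted edgeR p under 0.05 both with and without hypoplastic library 2. Without it they were 3 of the 40 (7.5%), against 4.31% of all genes, and their edgeR adjusted p was 0.531 to 0.55.

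Treated lungs were next set against untreated hypoplastic lungs, which share the hypoplastic libraries with the comparison above. No gene of the set passed edgeR's test, and 0 of all genes did (0.0%), with 721 at an unadjusted p under 0.05. DESeq2 called 17 genes (0.131%), none of the set, of which 3 of the 40 (7.5%) had an unadjusted p under 0.05, against 5.78% of all genes. The median log2 difference of the 40 was -0.62, against -0.01 over all genes tested, and 7 of the 40 were above 0, against 48.1%. At an unadjusted edgeR p under 0.05, Ccl20 and Tnf were lower, against 3.56% of all genes, and 0 were higher, against 2.0%. Tnf alone was lower without overlap of the libraries, against 4.74% of all genes, and 0 were higher, against 5.09%.

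The direction over the set turned when hypoplastic library 2 was left out: the median was then 0.20 and 30 of the 40 were above 0, against 48.8% of all genes. At an unadjusted edgeR p under 0.05, 5 genes were then higher in treated lungs, against 2.5% of all genes, and 0 were lower, against 2.82%. These were Cxcl16 at 0.35, Cx3cl1 at 0.42, Il1rn at 0.94, Il6 at 2.10 and Ptgs2 at 1.94 on the log2 scale. Hypoplastic library 2 had been singled out for its high values in these same genes. Leaving it out was therefore bound to raise most of these differences, and the turn is no separate evidence of a rise in treated lungs. Treated libraries did not overlap hypoplastic libraries 1 and 3 in 10 genes that were higher, against 10.3% of all genes, and in 1 that was lower, against 9.67%.

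**Figure D5:**
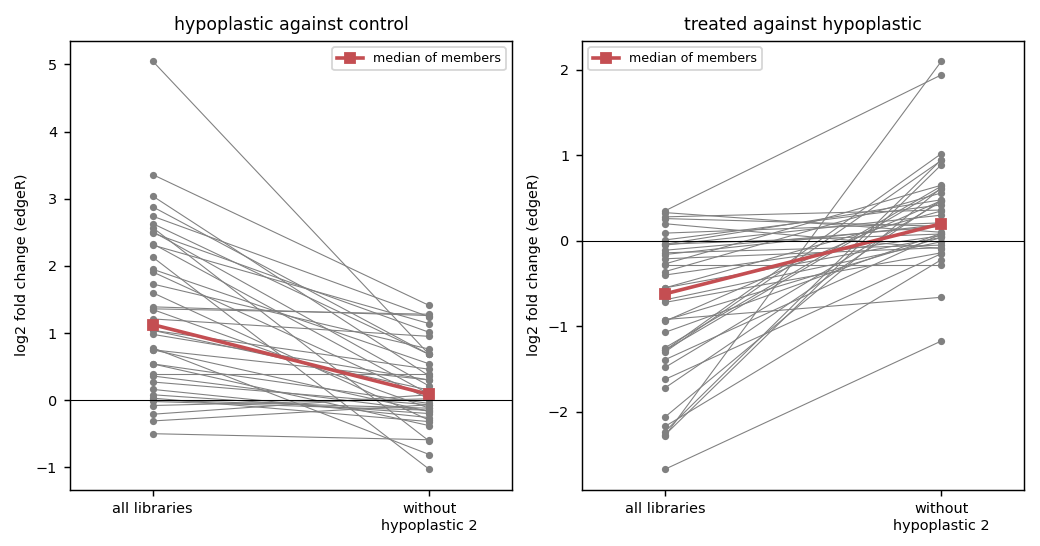
Log2 fold change (edgeR) of each of the 40 tested genes with all libraries and without hypoplastic library 2, joined by a line, for hypoplastic against control lungs (left) and treated against hypoplastic lungs (right), with the median in red. The median moves from 1.13 to 0.08 on the left and from -0.62 to 0.20 on the right.

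Among single genes, Ccl20 had a log2 difference of -2.67 between treated and hypoplastic lungs (SE 0.945, edgeR adjusted p = 0.891), and of -1.17 without hypoplastic library 2. Tnf was at -0.92 (SE 0.333, edgeR adjusted p = 0.896), and at -0.66 without it. Ccl5 was at -2.27 (SE 1.05), Ccl7 at -2.06 (SE 1), Ccl3 at -1.62 (SE 0.79), Cxcl2 at -1.72 (SE 0.828), Cxcl6 at -2.23 (SE 1.26) and Il6 at -2.28 (SE 1.17), with edgeR adjusted p of 0.901 to 0.915. Vcam1 was at -1.39 (SE 0.712), Icam1 at -0.55 (SE 0.309), Csf3 at -2.17 (SE 1.14) and Nfkbia at -0.72 (SE 0.409). Ccl3, Csf3 and Nfkbia kept a negative sign without hypoplastic library 2 but were near 0, at -0.15, -0.22 and -0.14. In the same fit Ccl5, Ccl7, Cxcl2, Cxcl6, Il6, Vcam1 and Icam1 had the opposite sign, at 0.89, 0.62, 0.48, 0.95, 2.10, 0.08 and 0.04. The other 28 genes had log2 differences from -1.48 to 0.35.

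Treated lungs were last set against control lungs, a comparison without hypoplastic library 2 in either group, although that library shares in the estimate of spread. No gene of the set passed edgeR's test and 0 of all genes did (0.0%), with 541 at an unadjusted p under 0.05, while DESeq2 called 14 genes (0.108%) and none of the set. The median log2 difference of the 40 was 0.32, against 0.00 over all genes, and 32 of the 40 were above 0, against 50.6%. Without control library 2 the median was 0.15 and 28 were above 0, against 51.5%. At an unadjusted edgeR p under 0.05, Il1r2 and Cxcr2 were higher, against 1.67% of all genes, and Cxcl3 was lower, against 2.5%. In a fit of only these 6 libraries 9 of the 40 (22.5%) were higher, against 2.03%, and 1 was lower, against 2.31%. With control library 2 left out, 0 genes of the set were higher at an unadjusted edgeR p under 0.05, against 1.6% of all genes, and 0 lower, against 1.27%.

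In 9 genes the 3 treated libraries all lay above the 3 control libraries, against 4.37% of all genes: Ccl6, Cxcl2, Cxcl13, Cxcl16, Il1a, Il1rn, Il6, Nfkb1 and Ptgs2. The reverse held for 0 genes, against 5.01%. Without control library 2 these numbers were also 9 and 0, against 8.32% and 8.45%. The 9 comprised 1 CC chemokine, 3 CXC chemokines, 3 cytokines or inhibitors and 2 NF-kB components or targets.

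The log2 difference between treated and control lungs was -0.64 for Cxcl3 (SE 0.257), 1.18 for Il1r2 (SE 0.483), 1.64 for Cxcr2 (SE 0.718), 1.23 for Cxcl13 (SE 0.761), 1.13 for Ptgs2 (SE 0.777), 2.77 for Il6 (SE 1.99), 0.80 for Ccl6 (SE 0.593) and 1.01 for Il1b (SE 0.818). The edgeR adjusted p was 0.998 for each. Several of these rested on 1 library: Cxcl3 was at -0.24 without control library 2, Ptgs2 at 0.37 without treated library 1, and Cxcr2 at 0.60 and Il1b at 0.46 without treated library 3. Leaving out each library in turn gave 0.89 to 1.60 for Il1r2, 1.06 to 1.65 for Cxcl13, 2.43 to 3.13 for Il6 and 0.54 to 0.98 for Ccl6. Treated library 3 was the highest treated library in 22 of the 40 genes, against 38.1% of all genes. It lay above all controls in 25 of the 40, against 28.5% of all genes, while treated libraries 1 and 2 did so in 16 each, against 23.1% and 24.9%. Treated library 3 also had the highest treated sums of macrophage markers (284.3 CPM) and neutrophil markers (126.2 CPM), and their part was not tested.

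Beyond these genes, 67 other chemokine, cytokine and NF-kB genes were listed, of which 54 were tested. Hypoplastic library 2 was the highest library in 37 of the 54 (68.5%), against the 16.1% of all genes given above. In hypoplastic against control lungs, 17 of the 54 (31.5%) were higher and 0 lower at an unadjusted edgeR p under 0.05, against 6.67% and 5.69% of all genes, with a median log2 difference of 0.56. Without hypoplastic library 2, 7 (13%) were higher and 2 (3.7%) lower, against 4.31% and 4.67% of all genes, with a median of 0.08. None passed edgeR's adjusted threshold. DESeq2 called 4 of the 54 (7.41%), all higher (Il1rl1, Socs3, Ptges and Tlr2), against 1.6% of all genes in either direction. It gave no p to Cxcl10 and Sele in any comparison. In treated against hypoplastic lungs 5 of the 54 (9.26%) were lower and 0 higher at an unadjusted edgeR p under 0.05, against 3.56% and 2.0% of all genes. Without hypoplastic library 2 these counts were 0 and 3 (5.56%), against 2.82% and 2.5%. In treated against control lungs 4 (7.41%) were higher and 0 lower at an unadjusted edgeR p under 0.05, against 1.67% and 2.5% of all genes. Without control library 2 only 1 (1.85%) was higher, against 1.6%. DESeq2 called 1 of the 54 in treated against control lungs (Il1rl1), against 0.108% of all genes. In treated against hypoplastic lungs it called 0 of the 54, against 0.131%.

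Il1rl1, the receptor of interleukin-33, had the smallest p of both lists. It was at 1.20, 0.41 and 1.18 CPM in control, 5.38, 15.1 and 6.39 CPM in hypoplastic and 6.77, 2.83 and 5.01 CPM in treated lungs, so all 6 hypoplastic and treated libraries lay above the controls. Its log2 difference between hypoplastic and control lungs was 3.24 (SE 0.537, edgeR adjusted p = 0.194), and 2.64 (SE 0.448) without hypoplastic library 2. The edgeR and DESeq2 adjusted p ran from 9.19e-08 to 0.628 over the alternatives and was under 0.05 only with DESeq2. The levels of its ligand Il33 overlapped between the groups.

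Socs3, a feedback inhibitor of interleukin-6 signalling, was at 9.09, 5.73 and 13.1 CPM in control, 17.2, 25.0 and 19.8 CPM in hypoplastic and 14.6, 12.5 and 14.0 CPM in treated lungs, with a log2 difference between hypoplastic and control lungs of 1.15 (SE 0.266, edgeR adjusted p = 0.317). Tlr2, a receptor for bacterial lipoproteins, was at 1.59, 0.535 and 1.33 CPM in control, 2.88, 7.10 and 3.26 CPM in hypoplastic and 3.08, 1.10 and 4.60 CPM in treated lungs, with a difference of 1.92 (SE 0.579, edgeR adjusted p = 0.323). For both genes all 3 hypoplastic libraries lay above the controls. Ptges, which makes prostaglandin E2 downstream of Ptgs2, had a log2 difference of 1.90 (SE 0.546, edgeR adjusted p = 0.317) and one of 0.86 without hypoplastic library 2. Zfp36, which destabilises cytokine messenger RNAs, had 0.69 (SE 0.202, edgeR adjusted p = 0.317) and 0.50 without it. Cxcl10, an interferon-induced ligand of Cxcr3, was at 98.9 CPM in hypoplastic library 2 and at 0.607 to 4.66 CPM elsewhere, and its log2 difference was 4.59 with that library and 0.96 without it.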

How the data were processed

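The authors deposited 1 table of estimated counts for 17465 genes by NCBI Gene ID, with 1 column for each of the 9 lung libraries. Of its nonzero values, 19.5% were exactly whole. The submitters' processing notes name the build rn7 and DESeq2. The aligner is not given in the sources used here, nor are the counting program and the treatment of reads shared by several genes. Per the labels' protocols, RNA of all libraries was extracted on 1 day. Symbols came from a RefSeq table of GRCr8, which matched 99.1% of the IDs, and this table and the GRCr8 promoter windows were used for names and motifs only. The deposited estimated counts were rounded to whole numbers, as the tests had been planned for counts.

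The main test was edgeR 4.0.16 (R 4.3.3) with TMM scaling, glmQLFit and glmQLFTest on all 9 libraries with 1 coefficient for each group (6 residual degrees of freedom). The filterByExpr function kept 12966 genes and set aside 4499. Ccl11, Ccl22 and Il10 did not pass it, so 40 genes of the set were tested. P-values were adjusted by Benjamini-Hochberg over all genes tested in each comparison, with a threshold of 0.05. Standard errors are the absolute log2 change over the square root of F and are approximate. The common biological coefficient of variation was 0.253. Tested on simulated data for hypoplastic against control lungs over 12966 genes, the fit recovered 40% of 100 genes changed by 1 on the log2 scale and 96% of 100 genes changed by 2, with 2 false calls. Every simulated gene had the common coefficient of variation, and no library stood apart in the simulation. These shares therefore do not carry over to genes with a wider spread, such as Il6 (SE 1.65 in that comparison).

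Alternatives were DESeq2 1.42.0, RLE size factors, no filter, only the 2 groups compared, a replicate block, a sex covariate and each library left out. Fold changes were printed for the genes of the set with the smallest p (20, 12 and 8 in the 3 comparisons) and for up to 6 genes of the pathway list. The set, the lists and the rule were chosen with earlier results of these data known, so nothing was adjusted over a list alone and no set test was run.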

Additional observations from a re-analysis of the deposited data

How the results depend on the processing

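No gene of the set was called under any of the alternatives run, which were DESeq2, RLE size factors, no filter, only the 2 groups compared, a replicate block, a sex covariate and leaving out each library. Genes called among all tested in hypoplastic against control lungs numbered 1, and 207 with DESeq2, 4 with only the 2 groups compared and 2 with the replicate block. Leaving out 1 library gave 0 to 32, with 32 without hypoplastic library 3, and 0 without control library 1 or 3. DESeq2 called 17 genes when treated lungs were set against hypoplastic ones and 14 against controls, where edgeR called 0. Leaving out 1 library gave 0 to 25 and 0 to 1 there, with 25 without hypoplastic library 3. With 1 library left out, the median log2 difference of the set ran from 0.08 to 1.37 in hypoplastic against control, from -0.88 to 0.20 between treated and hypoplastic and from 0.15 to 0.53 between treated and control lungs.

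Of the log2 differences of named genes, all 8 that reversed did so without hypoplastic library 2. Over the libraries left out, they ran from -1.03 to 2.67 for Ccl5 in hypoplastic against control lungs. In treated against hypoplastic lungs they ran from -2.81 to 0.89 for Ccl5, from -2.21 to 0.48 for Cxcl2, from -2.61 to 0.62 for Ccl7, from -2.84 to 2.10 for Il6, from -1.84 to 0.08 for Vcam1, from -0.77 to 0.04 for Icam1 and from -3.13 to 0.95 for Cxcl6. With DESeq2, 4 named genes became called (Il1rl1, Socs3, Ptges and Tlr2), and the cause was not tested. The other 540 values kept their sign, and none crossed the threshold. They include DESeq2 values of Ccl2, Ccl5, Cxcl2, Il1a, Il1rn and Il6, which had no p there and counted as not called.

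By their correlations, libraries with the same replicate number in the labels were no more alike than others. A check on 9 libraries cannot show whether same-numbered ones shared a litter, which is not stated. Deviations of same-numbered libraries correlated at -0.28 to 0.23 over 9 pairs, those of other numbers at -0.44 to 0.39 over 18 pairs, and 0 libraries correlated best with their own number. The replicate block changed no call within the set. It moved the number of genes of the set higher at an unadjusted edgeR p under 0.05 in hypoplastic against control lungs from 17 to 7 of 40 (17.5%), against 5.47% of all genes in that fit. With 3 libraries a group, and with Il6, Csf3 and Cxcl6 at 0 to 12 counts in several libraries, small differences in these genes were not detectable at this depth and spread. Large ones were not called either. Their log2 differences between hypoplastic and control lungs were 5.05, 3.36 and 2.57, with SE of 1.65, 1.41 and 1.35.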
